A study of Ovis aries with 36 samples.

Results

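The assembled sheep loci listed under the Ensembl genes ENSOARG00000001603 (the first locus) and ENSOARG00000001618 (the second locus), were compared across 9 lamb muscles. They are 2 of the 31136 loci in the count tables and of the 24763 loci that carry an Ensembl gene. They were chosen by their position: both cover the coordinates given for FABP3 in the study, and no other locus in the tables overlaps them. The study gave these coordinates because FABP3 was among its most significant genes between Semitendinosus and Supraspinatus in these same samples. That comparison, and tests over all muscles that include it, are therefore not independent of the choice. The files pair no Ensembl identifier with a gene symbol, so the name FABP3 was assigned to neither, and the values of each are given side by side.

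The samples came from 4 unrelated Poll Dorset cross-bred lambs aged 14 months, which had received soy crop and grain sorghum after weaning, and each lamb gave all 9 muscles. The muscles were Psoas major (PM) and Longissimus lumborum (LL) of the loin, Supraspinatus (SS) of the shoulder and Gluteus medius (GM) of the rump. From the hind limb came the cranial Gluteobiceps (GB), Semitendinosus (ST), Semimembranosus (SM), Adductor (AD) and Rectus femoris (RF). There were 4 samples per muscle and 36 samples in all. Tissue was cut from the mid superficial part of the belly, so a sample stands for that site of the muscle, and RNA-Seq measured the bulk tissue with no treatment or genotype contrast. In bulk tissue, a lower share of a fiber type and less RNA per fiber cannot be told apart.

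FABP3 encodes the heart-type fatty acid binding protein, a small cytosolic protein that binds long-chain fatty acids and carries them through the cell, among others to the mitochondria, where they are oxidized. Oxidative skeletal muscle and heart are known for high levels of it. Slow-twitch fibers rely largely on oxidative metabolism and contain their own isoforms of troponin, tropomyosin and the myosin light chains, whereas fast glycolytic fibers use glycogen to a larger extent.

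Depth ranged from 3699148 to 6427422 counts per sample, and the 4 most counted loci took between 65.7% and 78.3% of the counts of a sample. Levels are given as CPM, counts scaled to the TMM-normalized size of the library, on which 3 counts, taken as the detection floor, were worth 0.365 to 1.02 CPM. It takes in counting error alone. Different animals' samples of a muscle differed by more than counting noise in all 54 pairs. Loci paired with the names of slow fiber genes were detected in every muscle: TNNT1, the slow skeletal troponin T, had at least 63 counts in each of the 36 samples. The lowest count was 167 for ATP2A2, 73 for TNNC1, 43 for TPM3 and 11 for TNNI1. It was 6 for MYOZ2 and 5 for MYL3 and CASQ2, near the floor. General skeletal muscle, adipocyte, endothelial and connective tissue markers could not be paired with a locus and were not analysed here.

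Both loci are listed with the identical span, chromosome 2, from 235135326 to 235198261 on Oar_v3.1, a length of 62936 bases. This column therefore does not separate them. Such sharing is common in the tables: 5488 loci with an Ensembl gene, 22.2% of them, share their exact span with another such locus. In the RefSeq annotation of another sheep assembly, used here for gene order only, FABP3 lies within the span of ZCCHC17, a zinc finger gene, with SERINC2 and SNRNP40 as the coding genes on either side. The tables give neither strand nor exons, so the exonic or intronic position of the counted reads within the span is not known. Reads from overlapping genes on opposite strands cannot be told apart unless the counting used strand, and the setting is not given in the sources used here.

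The first locus was among the more abundant and the second among the less abundant. The first held 3490 counts over the 36 samples, between 15 and 306 per sample, with a mean of 16.97 CPM, higher than 86.9% of the 12461 loci tested. The second held 443 counts, between 2 and 24 per sample, with a mean of 2.15 CPM, higher than 32.9% of the loci tested. The second locus was at or under the floor in 2 samples and had fewer than 10 counts in 11. These levels are not corrected for transcript length and do not rank the loci by molecules.

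In PM, the first locus measured 33.7, 19.9, 33.0 and 29.1 CPM in animals 1 to 4. In SS, it measured 20.1, 20.0, 27.1 and 31.8 CPM. In GB, it measured 18.8, 11.5, 24.1 and 43.0 CPM. PM and SS were therefore high in all 4 animals, while GB held both the highest of the 36 values, in animal 4, and a value below all those of PM and SS, in animal 2.

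In GM, the first locus measured 15.1, 13.9, 23.9 and 21.9 CPM. AD had 22.0, 10.5, 17.1 and 18.8 CPM. SM had 15.7, 5.09, 22.9 and 18.97 CPM. These muscles overlapped with one another, and in each of them the lowest value came from animal 2.

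In RF, the first locus measured 12.6, 6.40, 6.32 and 14.3 CPM. LL had 16.97, 3.03, 6.83 and 6.51 CPM. ST, a hamstring muscle, had 8.50, 3.27, 4.12 and 4.08 CPM. In LL and ST animal 1 stood above the other three, and the LL sample of animal 1 exceeded all values of RF and ST. The lowest of the 36 values was the LL sample of animal 2.

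**Figure D1:**
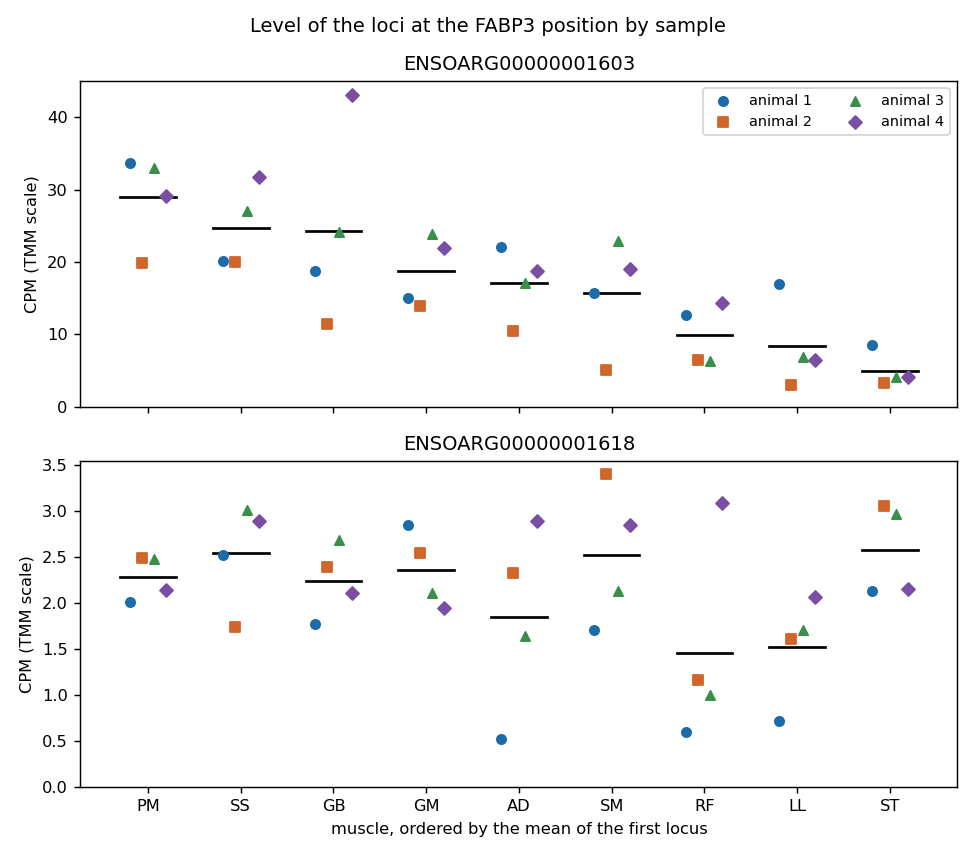
CPM on the TMM-normalized scale (vertical axes, linear from 0) of the first locus (top) and the second locus (bottom) in each of the 36 samples, by muscle; symbols mark animals and black lines the mean of 4 animals. The first locus declines from a mean of 28.9 CPM in PM to 4.99 CPM in ST, whereas the muscle means of the second locus lie between 1.46 and 2.57 CPM.

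Ordered by the mean, the first locus was highest in PM with 28.9 ± 6.35 CPM (SD, n = 4), followed by SS with 24.8 ± 5.74, GB with 24.3 ± 13.5, GM with 18.7 ± 4.95, AD with 17.1 ± 4.88 and SM with 15.7 ± 7.65 CPM. RF with 9.92 ± 4.16, LL with 8.34 ± 6.01 and ST with 4.99 ± 2.37 CPM were the lowest. Neighbours in this order did not pass the test: their log2FC ranged in size from 0.11 between GB and SS to 0.73 between LL and ST, and the lowest FDR among them was 0.259, between SM and RF. In each animal the order was similar at its ends. The highest muscle was PM in animals 1 and 3, SS in animal 2 and GB in animal 4, and the lowest was ST in 3 animals and LL in animal 2. The highest muscle exceeded the lowest 3.96-fold in animal 1, 6.61-fold in animal 2, 8.01-fold in animal 3 and 10.5-fold in animal 4.

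The first locus differed among the 9 muscles in a joint test of all of them (F = 14.9, FDR = 5.33e-07, by the quasi-likelihood F test of edgeR with animal in the model, Benjamini-Hochberg adjusted). It ranked 52 of 12461 loci by p, and 8.94% of the loci tested were called at an FDR of at most 0.01. Muscle accounted for 67.6% and animal for 17.2% of its sum of squares in log2 CPM, compared with a median over all tested loci of 28.7% and 15.4%. The muscle share was higher than that of 98.8% of the tested loci.

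Between pairs of muscles, a difference was called where the FDR was 0.01 or less and the log2FC exceeded 1 in size. The first locus was called in 10 of the 36 comparisons, where an average of 0.75% of tested loci were called per comparison and 0.417% of loci were called in at least as many. ST was the lower muscle in 6 of these, LL in 3 and RF in 1. The groups did not overlap in 9 comparisons, and in single comparisons 3.52% to 11.5% of tested loci had groups without overlap. At an FDR of at most 0.05 with any fold change 14 comparisons passed, and 25 had an unadjusted p under 0.05. The other 6 muscles were called lower in 0 comparisons.

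The comparison between ST and SS gave a level in ST 5.26-fold lower than in SS, a log2FC of -2.39 (95% confidence interval -3.05 to -1.74, FDR = 3.15e-06), while 1.52% of loci were called as higher in SS. The differences within animals 1 to 4 were -1.21, -2.49, -2.62 and -2.86 on the log2 CPM scale, lower in ST in 4 of 4 animals with a standard error of 0.37. The study lists FABP3 as lower in ST than in SS in these same samples, so this call is not independent evidence. The difference between ST and PM was the largest of the 36, with a log2FC of -2.59 (-3.23 to -1.94, FDR = 9.57e-07, 0.859% of loci called as higher in PM). Animals 1 to 4 had -1.94, -2.48, -2.90 and -2.73, and neither comparison had overlapping groups.

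ST was also lower than GB with a log2FC of -2.28 (FDR = 1.28e-05, 0.73% of loci called in this direction), than GM with -1.99 (FDR = 9.25e-05, 1.52% called) and than AD with -1.80 (FDR = 0.000396, 0.706% called). All 4 animals were lower in ST in each of these. Between SM and ST, both muscles of the hind thigh, the log2FC was 1.61 (0.93 to 2.29, FDR = 0.00432, 0.305% called as higher in SM), the groups overlapped, and the differences within animals were 0.86, 0.59, 2.38 and 2.12.

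LL was lower than PM with a log2FC of -1.86 (-2.45 to -1.27, FDR = 0.000119, 0.369% of loci called in this direction), lower than SS with SS minus LL at 1.67 (FDR = 0.000171, 1.16% called) and lower than GB with GB minus LL at 1.55 (FDR = 0.00203, 0.297% called). In animal 1 the difference between GB and LL was 0.14 and that between SS and LL 0.24, whereas the other animals lay between 1.77 and 2.66. RF was lower than PM with a log2FC of -1.57 (FDR = 0.00128, 0.353% called). RF and SS did not overlap, but with a log2FC of -1.38 and an FDR of 0.0105 this comparison missed the threshold, which 0.136% of loci passed as higher in SS. It was called under 9 of 14 alternative settings, DESeq2 and the likelihood ratio test of edgeR among them, all on the same animals. With the quasi-likelihood test it was not called without animal 2 (FDR = 0.0758), animal 3 (0.197) or animal 4 (0.0313). Neither was it called without animal in the model (0.252) or with RLE size factors (0.0103).

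Between the highest muscles no difference passed the test. SS minus PM had a log2FC of -0.19 with a 95% confidence interval of -0.73 to 0.35 (FDR = 0.778), which includes differences of up to 0.73 toward PM.

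**Figure D2:**
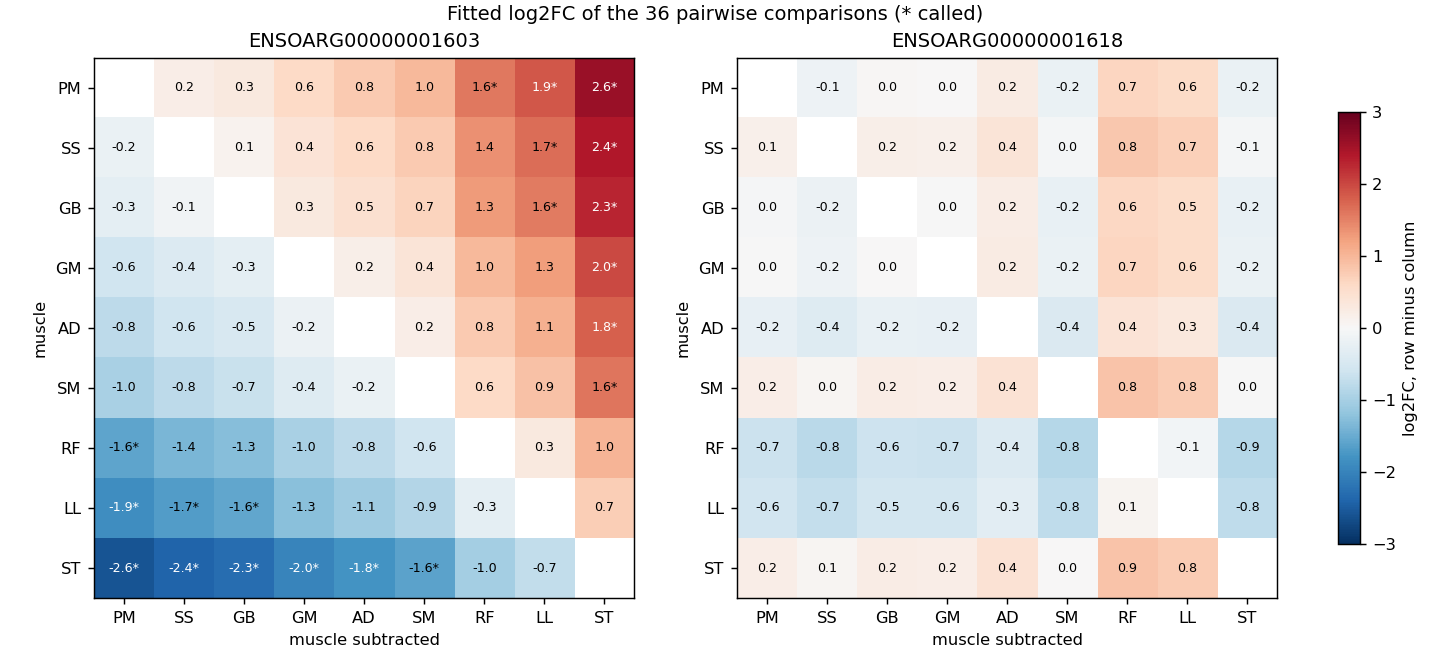
Fitted log2FC of the first locus (left) and the second locus (right) for each pair of muscles, as the row muscle minus the column muscle, with an asterisk where the comparison was called (FDR of 0.01 or less, log2FC over 1 in size). The first locus has asterisks in the rows of ST, LL and RF against higher muscles, down to -2.59 for ST minus PM, and the second locus has none.

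The calls depended in part on the animals and the model. Without animal 3, 6 of the 10 comparisons were called, and SM vs ST, ST vs AD, GB vs LL and RF vs PM were lost. Without animal 4, 8 were called, and SM vs ST and GB vs LL were lost. Without the LL sample of animal 1, 14 comparisons were called, the 10 among them. Without animal in the model 4 were called, all of them with ST as the lower muscle (against GB, GM, SS and PM).

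The second locus varied less between muscles. It measured 2.12, 3.05, 2.97 and 2.15 CPM in ST of animals 1 to 4, which was its highest muscle mean, 2.57 ± 0.51 CPM (SD, n = 4). In SS, it measured 2.52, 1.74, 3.01 and 2.89 CPM, and in PM 2.01, 2.49, 2.48 and 2.14 CPM. The muscles in which the first locus was lowest and highest thus overlapped in the second.

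The lowest muscle mean of the second locus was in RF, 1.46 ± 1.11 CPM, with 0.59, 1.16, 1.00 and 3.08 CPM in animals 1 to 4. LL had 0.71, 1.60, 1.71 and 2.06 CPM, a mean of 1.52 ± 0.57. AD had 0.52, 2.32, 1.64 and 2.89 CPM. The lowest values in these muscles all came from animal 1, and the counts behind them were 3 in RF, 4 in LL and 2 in AD.

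SM, GM and GB had means of 2.52 ± 0.75, 2.36 ± 0.41 and 2.24 ± 0.39 CPM, and single samples between 1.70 and 3.40 CPM. The highest of its 36 values was SM of animal 2, with 24 counts, the sample in which the first locus had the lowest SM value.

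The second locus did not pass the joint test (F = 1.71, FDR = 0.272, edgeR). It was called in 0 of the 36 comparisons, while 9.22% of loci were called in at least 1, and 0 passed an FDR of 0.05. At an unadjusted p under 0.05 there were 6 comparisons, SM, ST and SS each against RF and LL, with RF or LL as the lower muscle and a lowest FDR of 0.149. DESeq2 also called 0. The fitted log2FC ranged in size up to 0.85, and the interval held 0 in 30 of 36 comparisons. Between ST and SS the log2FC was 0.05 (95% confidence interval -0.60 to 0.70, FDR = 0.947), and the animals had -0.21, 0.70, -0.02 and -0.38. The lower level in ST that the study lists for FABP3 was thus called at the first locus and not at the second. In all 10 comparisons called for the first locus, the log2FC of the first locus lay outside the 95% interval of the second. These comparisons were picked by the size of the difference at the first locus, so this is no test of a difference between the loci. The 95% intervals of both loci overlapped in GB vs LL, RF vs PM and SS vs LL. Groups without overlap occurred in 1 comparison, ST vs LL, where 5.55% of loci had none. Muscle accounted for 35.4% and animal for 21.3% of its sum of squares in log2 CPM.

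Since both counts of a sample come from the same library, their ratio is free of library size. Of the counts at both loci, the first locus took 92.4% ± 2.39 (SD, n = 4) in PM, 90.6% ± 1.46 in SS, 89.9% ± 5.22 in GB, 89.4% ± 6.76 in AD and 88.1% ± 4.35 in GM. The share was 87.2% ± 5.80 in RF, 82.2% ± 14.9 in SM, 79.3% ± 12.7 in LL and 63.9% ± 12.2 in ST. In ST of animal 2 the loci had nearly equal counts, 15 and 14, and the share was 51.7%. The lowest share in PM was 88.9%, above the highest in ST, 80.0%.

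**Figure D3:**
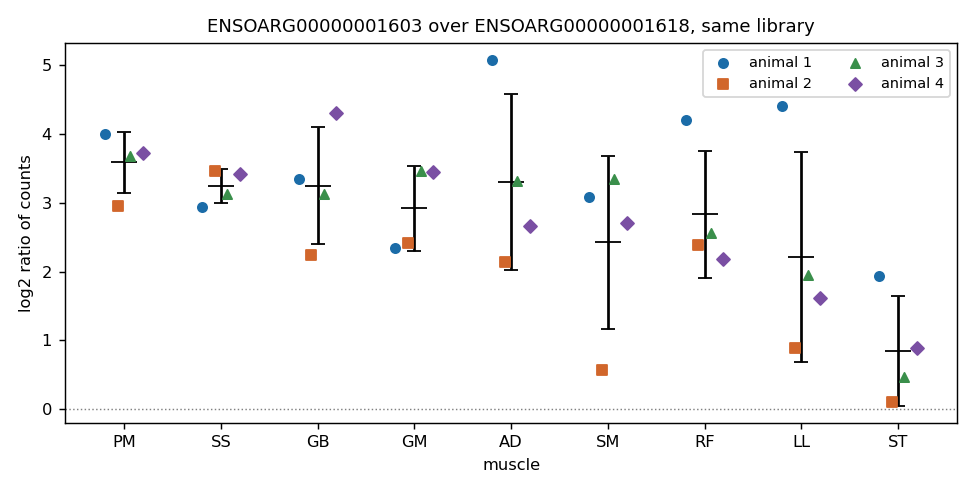
Log2 ratio of the counts of the first locus over the second in the same library (0.5 added to each), by muscle, with symbols for animals and the mean with its SD (n = 4); the dotted line marks equal counts. PM has the highest mean, 3.59, and ST the lowest, 0.85.

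The mean log2 ratio fell from 3.59 ± 0.44 (SD, n = 4) in PM to 0.85 ± 0.80 in ST, a range of 2.74. Muscles differed in this ratio by a 1-sided permutation test of the sum of squares between muscles, with labels permuted within animals (p = 0.00216, 100000 permutations, 1 such test made). Without animal 3 the p was 0.0570 with a range of 2.58, and without animals 1, 2 and 4 it was 0.00025, 0.0349 and 0.0324. The AD sample of animal 1 had the highest ratio, 5.08, with 84 counts at the first locus and 2 at the second.

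Over the 36 samples, with log2 CPM centred on each animal, the levels of both loci had a Pearson correlation of 0.11 and a Spearman correlation of 0.04. The points share 4 animals and 36 libraries, and the counts of the second locus are sparse. The tested neighbours of the span had low correlations with the first locus: the nearest on the side of higher coordinates, 356 bases away, had a correlation with it of 0.08, and the nearest with an Ensembl gene on the other side, 30625 bases away, of -0.04. Neither was called in any of the 36 comparisons, and their joint FDRs were 0.481 and 0.115 (edgeR). On the side of lower coordinates, a locus without an Ensembl gene lay nearer, 3148 bases away, and was not among the loci tested.

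By the same measure, the tested locus with an Ensembl gene most like the first was the locus paired with TPM3, the slow skeletal tropomyosin, with a correlation of 0.88. The 4 loci after it had 0.87, 0.85, 0.85 and 0.84, among them TNNT1 with 0.85. For the second locus the 5 highest correlations were between 0.62 and 0.68, and the joint FDR of those loci lay between 0.0346 and 0.741, none under 0.01.

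Of 11 slow fiber genes, 8 could be paired with a locus through coordinates. The study listed all 8, like FABP3, as different between ST and SS in these same samples. Their direction between these muscles is therefore not independent evidence. The same holds for their low level in ST and for the correlations of these loci and of their sum with the first locus. The troponins TNNT1, TNNC1 and TNNI1, the myosin light chain MYL3, the tropomyosin TPM3, the Z-disc protein MYOZ2, the calcium pump ATP2A2 and the calcium-binding CASQ2 were all lowest in ST, as was the first locus. Of these, 6 were highest in PM and 2, MYOZ2 and CASQ2, in SS. All 8 were called lower in ST than in SS, with a median log2FC of -3.26 beside -2.39 for the first locus and 0.05 for the second. Their correlations with the first locus were 0.72 to 0.88 and with the second -0.03 to 0.20. PVALB, a calcium buffer of fast fibers and the only fast fiber gene paired of 12, had -0.35 with the first locus and was listed at 0 counts in 11 samples. Its means were 5.68 ± 2.58 CPM (SD, n = 4) in ST and 5.63 ± 7.84 in SS (log2FC 0.46, FDR = 0.519), and it was called higher in SS than in PM (log2FC 4.81, FDR = 5.8e-05) and LL (4.93, FDR = 9.18e-06).

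Between SS and PM, MYL3 was the slow fiber locus called, with a log2FC of -1.78 (FDR = 0.000275), whereas the first locus had -0.19. The other 7 lay between -0.67 for TPM3 and 0.75 for MYOZ2. In RF, the muscle with the third lowest mean of the first locus, MYOZ2 had its second lowest mean, 5.93 ± 1.28 CPM (SD, n = 4), while ATP2A2, at 211 ± 84.2 CPM, was higher there than in GM, with 199 ± 67.3 CPM.

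**Figure D4:**
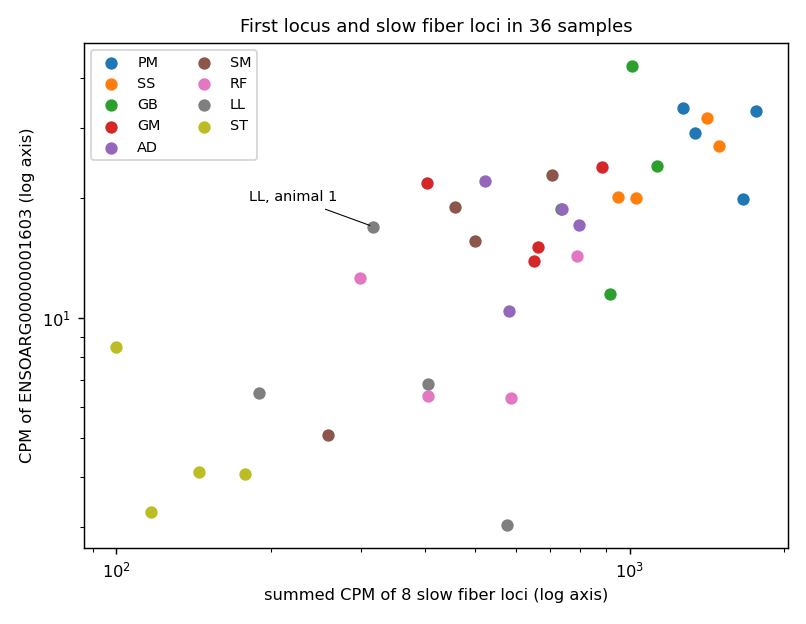
CPM of the first locus (vertical, log axis) against the summed CPM of the 8 slow fiber loci (horizontal, log axis) in the 36 samples, colored by muscle. ST lies at the lower left and PM and SS at the upper right, and the LL sample of animal 1 has 16.97 CPM at a summed level of 317 CPM.

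The summed CPM of the 8 loci went from 135 ± 34.2 (SD, n = 4) in ST through 372 ± 163 in LL and 520 ± 216 in RF to 1222 ± 274 in SS and 1510 ± 240 in PM. SM had 480 ± 183, GM 650 ± 197, AD 659 ± 128 and GB 948 ± 167. SM was thus below RF in the sum, whereas its mean of the first locus was above that of RF. GM and AD also stood in the other order. The log2 value of the sum had a correlation of 0.84 with the first locus over the 36 samples, centred on animals. In LL the samples did not follow the sum. Animals 1 to 4 had summed levels of 317, 577, 404 and 189 CPM, whereas the first locus had 16.97, 3.03, 6.83 and 6.51 CPM. The sample with the highest sum in LL therefore had the lowest value of the first locus. These LL values are not centred on animals. Over its muscles, animal 2 had a mean of 10.4 CPM at the first locus, against 18.2, 18.4 and 20.9 CPM in animals 1, 3 and 4.

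The lists for fatty acid uptake, mitochondrial fatty acid oxidation, lipid droplets, regulators of oxidative metabolism and other members of the FABP family held no gene that could be paired with a locus, and the fatty acid pathway was not analysed here.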

How the data were processed

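Libraries were sequenced as 100-base paired-end reads. Per the labels and the study's methods, the authors mapped reads on Oar_v3.1 by TopHat2 2.0.13, assembled loci with Cufflinks 2.2.1 and the Ensembl annotation, counted reads per locus with HTSeq, and deposited whole-number counts without normalization. The HTSeq version, strand setting and treatment of overlaps are not given in the sources used here; reads that fit overlapping loci may have been left uncounted.

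Each of the 31136 loci was used once. In edgeR 4.0.16 (R 4.3.3), filterByExpr by muscle left 12461 loci, TMM factors were applied, and muscle and animal were fitted to all 36 samples; both loci passed the filter. Samples with the same number in their titles were taken to come from the same lamb (mean correlation of deviations 0.236 over 144 pairs, against -0.0777 between numbers). The study used as many sequencing lanes as animals, and each lane held as many samples as an animal gave. Which samples shared a lane is not given in the sources used here, and lane was not part of the model. If each lane held the samples of a single animal, lane and animal cannot be told apart. The animal term and the correlation between samples of the same number would then include lane. Pairs of muscles were tested with the quasi-likelihood test, adjusted over all tested loci. Correlations used log2 CPM with a prior count of 2. Scripts were tested on simulated data.

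The members and gene lists were chosen with earlier results of these data known. Named are both loci, the 5 loci most correlated with each (without identifiers where the files pair none with a name), loci overlapping the span, and listed genes paired with a locus; 9 of 131 listed symbols were paired, through coordinates in the study's tables. The neighbouring loci and the median of the slow loci were added after values were seen. Alternatives covered DESeq2 1.42.0, the likelihood ratio test, no animal term, other size factors, other filters and library sizes, fits to 8 samples and animals left out.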

Additional observations from a re-analysis of the deposited data

How the results depend on the processing

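The first locus passed the joint test under every alternative run, and ST vs SS was called for it under all of these, with a log2FC of -2.79 to -2.23 when each animal was left out. Its joint FDR was between 5.45e-08 and 0.000275 with an animal left out. The 10 called comparisons became 4 without animal, the replicate block of the design, and 16 without a filter on low counts; with an animal left out they numbered 6 to 14. The cause of these shifts was not tested. Leaving out an animal leaves fewer samples, and 14 comparisons were called without animal 1 and 10 without animal 2. For the second locus the joint FDR was 0.0804 to 0.709 with an animal left out, and 0 comparisons were called each time. Its log2FC between ST and SS, 0.05 as reported, was -0.0044 with library sizes from Ensembl loci and -0.19 to 0.18 with an animal left out. The range of the mean log2 ratio was 2.58 to 2.97 with an animal left out, and the p of 0.0570 without animal 3 no longer passed 0.05; with labels permuted without the block it was 0.0166. With an animal, or the LL sample of animal 1, left out, log2FCs of the first locus spanned both signs in 4 comparisons that were called under no setting, SM vs AD (-0.42 to 0.016), GB vs GM (-0.013 to 0.48), GB vs SS (-0.40 to 0.12) and RF vs LL (-0.0072 to 0.81). The fit without the LL sample of animal 1 was chosen after seeing the data. A minimum of 10 counts in every sample removed the second locus, and fits to 8 samples gave it no count of calls, since it failed the filter in some. Its counts were 2 to 24 per sample, and the median width of its 95% intervals was 1.32 on the log2 scale, against 1.16 for the first locus. The labels do not separate biological from technical spread within an animal, since each animal gave 1 sample per muscle.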
